A study of Mus musculus with 44 samples.

Results

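The 34 genes described here are genes of G2 phase and mitosis, taken by gene symbol from a fixed list. The rule uses no measured value, but the list was chosen with earlier results of these data known. Each symbol matched 1 of the 54532 gene rows in the count table of a fibroblast line and in that of primary neurons, and all 34 genes passed the filter on low counts in both tables. The list holds the transcription factor Foxm1, the cyclins with Cdk1 and its phosphatase, 4 mitotic kinases, 4 spindle checkpoint genes, 2 genes of the anaphase-promoting complex pathway, 4 centromere and kinetochore genes, 6 spindle motors and assembly factors, 5 cytokinesis genes, and Top2a and Mki67.

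The study sequenced poly(A)-selected RNA in 44 mouse libraries, 4 in each of 11 groups. L929 cells are fibroblasts of a long-established mouse line. There were 16 L929 libraries, from a control group and from 3 groups carrying isoform 2 of FRMD5, which belongs to the FERM-domain proteins found beneath the plasma membrane. These constructs were the full-length protein, a form without the combined intrinsically disordered regions (delta-IDR) and a form without the coiled-coil and low-complexity domains (delta-CC-LCD). The series' design text places the construct lines after 4 h of dexamethasone (DEX), a synthetic glucocorticoid. Neither the control group's DEX status nor a vector is given in the labels, so construct and DEX cannot be told apart against it. The other 28 libraries came from primary mouse cortical neurons treated for 4 h, with 2 groups on control peptide at 100 µM, without and with DEX, and 5 groups on interfering peptide at 1, 3, 10, 30 or 100 µM, all of them with DEX. Strain, age, the number of animals, the construct promoter, the clonality of the lines and the DEX concentration are not stated in the labels. Nor do they say whether the 4 libraries of a group are separate cultures, so p-values measure the spread between libraries, which may be technical.

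The libraries held 17211270 to 18313407 counts in L929 and 13685236 to 17083701 in neurons. Frmd5 had 0 to 8 counts in each L929 library, so the construct is not visible in the counts, and it stood at 81.4 to 99.6 CPM (counts per 1e+06 TMM-scaled counts) in neurons. In the median over groups, libraries 1 and 3, and libraries 2 and 4, of a group differed less than other pairs did. This did not hold in every group, since in delta-CC-LCD libraries 1 and 3 were the least alike pair. Library 4 of the delta-IDR group was the lowest of its group for these genes, with a summed level of 5707 CPM over the 34 genes against 6374 to 6539 CPM in the others. The check for single libraries given at the end included this sum and did not flag it. Library 2 of the delta-CC-LCD group was the lowest for Cenpe, Cenpf and Mki67. Values with and without these libraries are given below. Neuron markers summed to 4634 to 5806 CPM in the neuron libraries and to 0.0523 to 1.14 CPM in L929, where up to 7 of 8 were at 0, and fibroblast markers to 6582 to 8322 CPM in L929, where up to 2 of 8 were at 0.

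Entry into mitosis is driven by Cdk1 bound to its A- and B-type cyclins. Plk1 and the Aurora kinases build the spindle, and the checkpoint genes hold back the anaphase-promoting complex until every chromosome is attached. Transcripts of these genes accumulate late in the cycle, are low in resting cells and are used as a readout of dividing cells. Neurons do not divide, so in a cortical culture such transcripts are usually attributed to progenitors and glia. Many G2/M promoters carry a cell cycle homology region (CHR), read by the DREAM, MuvB and FOXM1 complexes, together with CCAAT boxes bound by NF-Y.

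The promoters of the 34 genes were read from RefSeq windows on GRCm38.p6 that run from 250 bases before to 50 bases after each start. Windows were found for 28 of the genes, 30 windows in all, and not for Ccna2, Cdc25c, Aurkb, Kif20a, Tpx2 or Foxm1. The letters searched were TTTGAA or TTTAAA for the CHR (TTCAAA or TTTAAA on the other strand) and CCAAT for the CCAAT box (ATTGG on the other strand). TTTAAA is its own complement, and neighbouring CCAAT and ATTGG matches can overlap. CHR letters stood in 26 of the 30 windows (86.7%), against 27.6% of all 32851 windows of the same length. At least 1 CCAAT box stood in 25 windows (83.3%, against 37.4%), at least 2 in 18 (60.0%, against 11.7%), and both motifs together in 23 (76.7%, against 10.7%). For Kif2c the stretch before the RefSeq start (chr4:117178773-117179022) lies inside the gene as counted (117159639 to 117182639). Its window, with 2 CHR matches, is among the 26. A match is a description of the letters and not a measured binding site.

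The sequences below are the 150 bases before the start of 6 of the genes, 5′ to 3′ on the gene's strand, which is the minus strand in each case, with the motif letters of either strand in capitals. Cdk1 is shown because it rose with all 3 constructs, Cdc20 and Bub1 because they fell with all 3, Ect2 because it separated constructs, Top2a for its repeated CCAAT boxes, and Ccnf because it moved against the others in neurons.
Cdk1, chr10:69352913-69353062: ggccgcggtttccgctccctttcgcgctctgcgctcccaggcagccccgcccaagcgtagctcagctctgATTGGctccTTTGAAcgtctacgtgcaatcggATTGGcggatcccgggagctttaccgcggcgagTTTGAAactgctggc
Top2a, chr11:99024190-99024339: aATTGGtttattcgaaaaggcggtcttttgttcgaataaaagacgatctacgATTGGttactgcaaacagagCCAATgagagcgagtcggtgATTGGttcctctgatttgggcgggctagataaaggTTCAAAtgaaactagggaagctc
Ect2, chr3:27153879-27154028: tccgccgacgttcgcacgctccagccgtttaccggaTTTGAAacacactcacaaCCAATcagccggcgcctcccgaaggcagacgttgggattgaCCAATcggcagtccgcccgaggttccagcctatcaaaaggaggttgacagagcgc
Cdc20, chr4:118437344-118437493: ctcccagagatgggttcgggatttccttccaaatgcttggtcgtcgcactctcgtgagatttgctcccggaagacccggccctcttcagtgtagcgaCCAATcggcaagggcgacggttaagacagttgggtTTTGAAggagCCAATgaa
Bub1, chr2:127831860-127832009: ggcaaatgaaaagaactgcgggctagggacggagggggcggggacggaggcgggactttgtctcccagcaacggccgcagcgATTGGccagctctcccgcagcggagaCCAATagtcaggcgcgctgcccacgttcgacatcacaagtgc
Ccnf, chr17:24251410-24251559: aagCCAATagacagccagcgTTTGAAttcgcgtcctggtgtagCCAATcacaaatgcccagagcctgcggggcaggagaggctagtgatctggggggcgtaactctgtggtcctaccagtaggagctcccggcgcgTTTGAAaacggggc
The Cdk1 stretch holds 2 CHR matches and 2 CCAAT boxes, and that of Ccnf also holds 2 of each. Top2a has 1 CHR match and 4 CCAAT boxes. Ect2 and Cdc20 each have 1 CHR match and 2 CCAAT boxes. The Bub1 stretch has 2 CCAAT boxes and no CHR letters. No relation between these letters and the direction of change was tested.

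All 34 genes were expressed in both systems. On a scale corrected for length (CPM per kilobase of exon), Top2a, which untangles sister chromatids, was the highest of the 34 in both tables, with a median of 103.9 CPM per kilobase over the L929 libraries and 55.9 over the neuron libraries. Tpx2, which activates Aurora A on the spindle, followed in L929 at 98.7 CPM per kilobase, and Mki67, which coats mitotic chromosomes, followed in neurons at 37.4. The lowest were Cenpf at 6.68 and Ttk at 8.83 CPM per kilobase in L929, and Anln at 5.49 and Mad2l1 at 6.25 in neurons. Summed over the 34 genes, the level was 6342 ± 67.7 CPM in the L929 control group and 2836 ± 34.4 CPM in neurons with control peptide and no DEX (mean ± SD, n = 4 in each). The ratio of these group means for single genes ran from 0.907 for Cenpf to 6.28 for Anln. The tables were scaled separately, so no test was made across them.

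**Figure D1:**
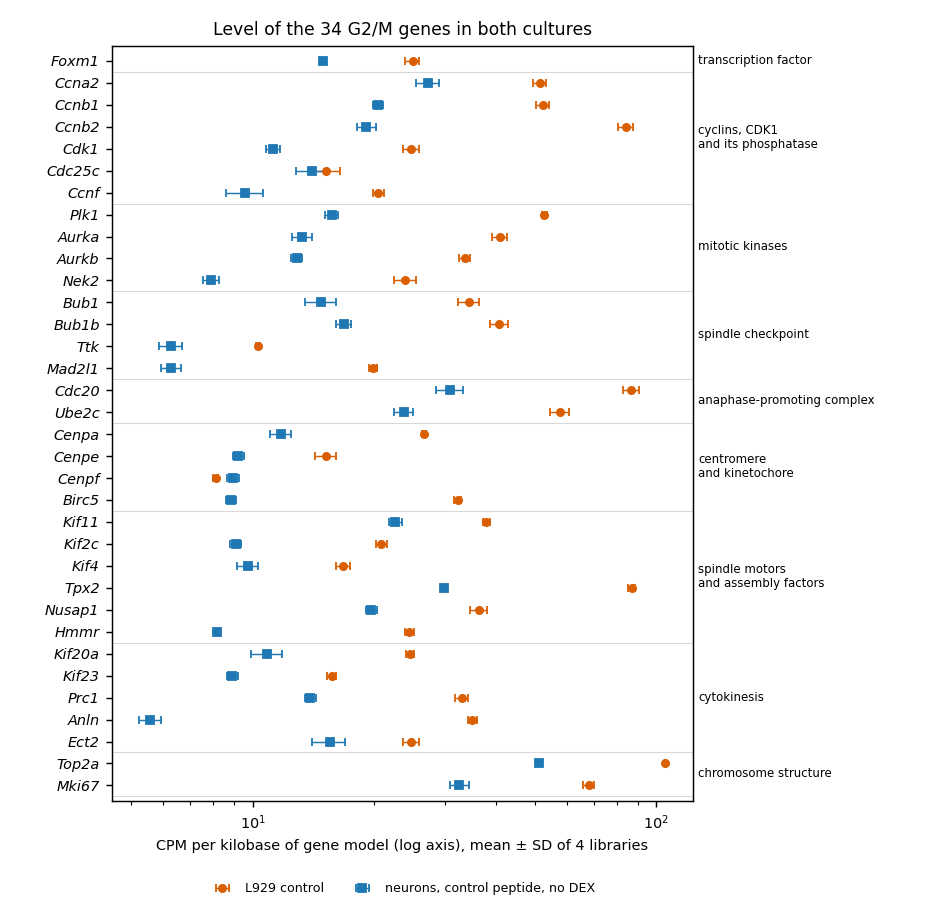
Level of each of the 34 genes in CPM per kilobase of exon (log axis) in the L929 control group and in neurons with control peptide and no DEX; points are means and bars the SD of 4 libraries. Top2a is the highest gene in both systems, and the L929 mean lies above the neuron mean for every gene but Cenpf.

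The first question was how the constructs changed the program relative to the L929 control group. The 3 comparisons share the control libraries, so their values are given side by side. The program did not move as a block. Ccnb1, Cdk1, Ccna2, Ube2c, Tpx2 and Nusap1 rose in all 3 construct groups (with total counts as library sizes, Tpx2 and Ccna2 were called in none of the 3 and Ccna2 turned sign with full-length, Nusap1 was called with delta-CC-LCD only, and Ube2c was not called with full-length), whereas spindle checkpoint kinases, Cdc20, Aurkb, Birc5 and the motors Kif2c, Kif20a and Kif11 fell in all 3. Calls on Ccna2, Nusap1, Birc5 and Kif11 in some of these groups were lost without single libraries, as given below. The share of all tested genes that moved the same way in all 3 groups was not counted. With shared controls and 59.1% to 64.6% of genes called in each comparison, such agreement is not particular to this list. In bulk RNA, fewer cells in a phase and less RNA per cell cannot be told apart. A gene was called changed at a Benjamini-Hochberg adjusted p below 0.05 over all genes tested in edgeR's quasi-likelihood test. With the full-length protein 8 genes rose and 12 fell, at a background of 59.1% of all 14118 tested genes called, 30.3% higher and 28.7% lower. With delta-IDR 8 rose and 9 fell (background 64.4%, with 32.8% higher and 31.6% lower). With delta-CC-LCD 6 rose and 19 fell (background 64.6%, with 31.9% higher and 32.7% lower). A call in 1 group and not in another does not show a difference between constructs, which is tested further on. The share of the list called was near the background with full-length (20 of 34, 58.8%, against 59.1%). It was below the background with delta-IDR (17 of 34, against 64.4%) and above it with delta-CC-LCD (25 of 34, 73.5%, against 64.6%). The delta-CC-LCD calls leaned lower, 19 against 6, where the background was nearly even at 32.7% lower and 31.9% higher. These departures from the background were not tested. The median log2 change of the list was -0.08, -0.04 and -0.14, beside -0.0052, -0.011 and -0.024 over all tested genes.

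**Figure D2:**
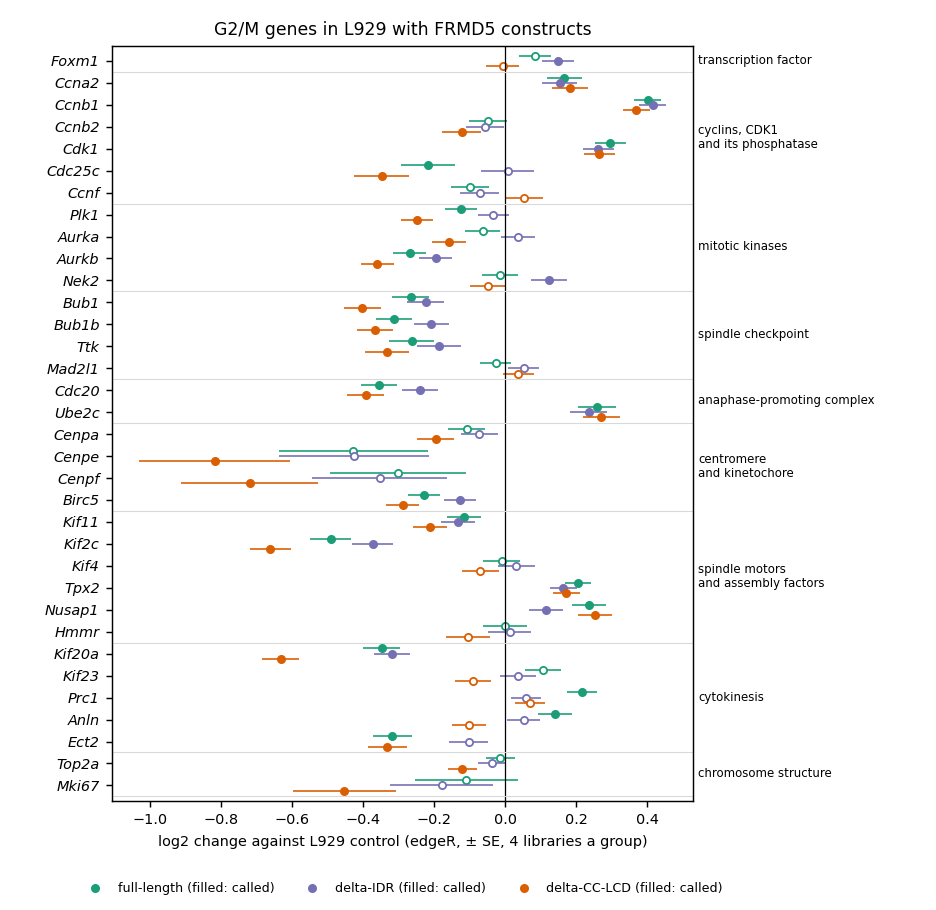
Log2 change ± SE of each of the 34 genes in the full-length, delta-IDR and delta-CC-LCD groups against the L929 control group; filled points were called at an adjusted p below 0.05. Ccnb1 and Cdk1 lie to the right for all 3 constructs and Kif2c and Kif20a to the left, each of the last 2 at its lowest with delta-CC-LCD. With total counts as library sizes these 4 genes keep their directions.

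Among the regulators, Ccnb1, the B-type cyclin of mitotic entry (ENSMUSG00000041431, mm10 chromosome 13 from 100778650 to 100786570), stood in libraries 1 to 4 at 216.5, 217.2, 233.0 and 214.5 CPM in the control group, 295.3, 280.7, 301.1 and 286.6 CPM with full-length, 291.9, 305.1, 296.4 and 281.9 CPM with delta-IDR and 276.3, 288.1, 282.1 and 291.7 CPM with delta-CC-LCD. No construct library overlapped the control libraries. The log2 change was 0.40 ± 0.04 with full-length, 0.42 ± 0.04 with delta-IDR and 0.37 ± 0.04 with delta-CC-LCD (adjusted p = 1.975e-10, 8.482e-11 and 8.989e-10). Cdk1, its kinase partner (ENSMUSG00000019942, mm10 chromosome 10 from 69335146 to 69352938), stood at 128.0, 120.7, 123.9 and 115.3 CPM in the control group, 151.4, 152.8, 144.0 and 150.8 CPM with full-length, 139.5, 155.3, 149.3 and 140.9 CPM with delta-IDR and 147.1, 147.1, 150.9 and 141.2 CPM with delta-CC-LCD. Again every construct library lay above every control library. The changes were 0.30 ± 0.04, 0.26 ± 0.04 and 0.27 ± 0.04 (adjusted p = 6.463e-07, 4.123e-06 and 3.298e-06). Ccna2, the A-type cyclin, rose by 0.17, 0.15 and 0.18 on the log2 scale, the delta-IDR call being lost without library 3 of that group (0.0526). Ccnb2, the second B-type cyclin, did not follow Ccnb1, with changes of -0.05, -0.06 and -0.12, the last called at an adjusted p of 0.04864 and lost without any of 6 libraries (up to 0.134). Cdc25c, the phosphatase that activates Cdk1, fell by 0.22 with full-length and by 0.35 with delta-CC-LCD, and its value with delta-IDR was 0.01 ± 0.08 (adjusted p = 0.9437). The full-length call on Cdc25c was lost without control library 4 (0.0873), full-length library 1 (0.0616) or full-length library 3 (0.0526). Foxm1, the transcription factor of the program, stood at 141.9, 142.9, 150.9 and 137.2 CPM in the control group, 149.8, 148.7, 149.9 and 158.9 CPM with full-length, 165.5, 161.6, 163.5 and 144.5 CPM with delta-IDR and 143.9, 146.0, 148.1 and 132.2 CPM with delta-CC-LCD. Its groups overlap, with 3 of the 4 delta-IDR libraries above every control library and library 4 among them. Foxm1 was called with delta-IDR alone (0.15 ± 0.05, adjusted p = 0.006021), with 0.08 ± 0.05 for full-length and -0.01 ± 0.05 for delta-CC-LCD.

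Among the 4 mitotic kinases, 2 fell with full-length, 1 fell and 1 rose with delta-IDR, and 3 fell with delta-CC-LCD. Plk1, which drives centrosome maturation and mitotic entry, stood at 115.0, 114.3, 116.9 and 118.0 CPM in the control group, 105.5, 105.6, 107.0 and 107.6 CPM with full-length, 112.1, 118.2, 121.3 and 102.1 CPM with delta-IDR and 96.01, 98.41, 96.44 and 99.83 CPM with delta-CC-LCD. The full-length and delta-CC-LCD libraries all lay below the control libraries, and the delta-IDR libraries lay around them. Plk1 fell by 0.13 with full-length (adjusted p = 0.01704) and by 0.25 with delta-CC-LCD (1.605e-05), beside -0.03 ± 0.04 with delta-IDR (0.5293). Aurka, the spindle pole kinase, stood at 104.9, 97.27, 106.1 and 106.2 CPM in the control group, 96.95, 101.3, 104.0 and 94.43 CPM with full-length, 106.9, 111.9, 108.5 and 97.3 CPM with delta-IDR and 87.27, 93.19, 94.08 and 96.69 CPM with delta-CC-LCD. Only the delta-CC-LCD libraries lay wholly below the control libraries, and only there was Aurka called (-0.16 ± 0.05, adjusted p = 0.005198). Aurkb, the kinase of the chromosomal passenger complex, fell in all 3 groups, by 0.27, 0.20 and 0.36. Nek2, a centrosomal kinase, was called with delta-IDR alone (0.12 ± 0.05, adjusted p = 0.03497), and that call was lost without control library 2 or 4 or delta-IDR library 1, 2 or 3 (0.058 to 0.153).

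Of the 4 spindle checkpoint genes, 3 fell in every construct group, as did their target Cdc20. Bub1b, the BubR1 checkpoint protein, stood at 184.2, 168.0, 180.6 and 165.6 CPM in the control group, 142.5, 132.0, 152.7 and 134.7 CPM with full-length, 150.5, 159.1, 153.9 and 141.0 CPM with delta-IDR and 125.9, 133.9, 141.3 and 140.6 CPM with delta-CC-LCD. Every construct library lay below every control library. Bub1b fell by 0.31, 0.21 and 0.37, Bub1 by 0.27, 0.22 and 0.40 and Ttk, the kinase that starts checkpoint signalling, by 0.26, 0.19 and 0.33. Mad2l1, the checkpoint protein that binds Cdc20, was not called (-0.03, 0.05 and 0.04). Cdc20, the activator of the anaphase-promoting complex, stood at 167.6, 160.7, 166.4 and 152.1 CPM in the control group, 128.3, 130.3, 129.6 and 117.3 CPM with full-length, 132.4, 141.5, 134.9 and 138.8 CPM with delta-IDR and 109.3, 130.5, 119.1 and 133.4 CPM with delta-CC-LCD. Its construct libraries lay below the control libraries without overlap. Cdc20 fell by 0.36, 0.24 and 0.39 (adjusted p = 5.596e-07, 0.0001462 and 7.482e-08). Elovl1 overlaps Cdc20 on the other strand with counts equal to 57.5% of those of Cdc20 in L929, and the labels do not say whether strand was used in counting. Ube2c, the ubiquitin-conjugating enzyme of the same pathway, moved the other way and rose by 0.26, 0.24 and 0.27.

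At the centromere, Cenpe, a kinetochore motor that moves chromosomes to the spindle equator, stood at 123.9, 141.2, 127.1 and 131.2 CPM in the control group, 89.54, 100.9, 83.84 and 114.8 CPM with full-length, 98.18, 113.9, 100.2 and 77.07 CPM with delta-IDR and 71.66, 41.2, 102.9 and 80.78 CPM with delta-CC-LCD. All construct libraries were below the control libraries, but the construct libraries were spread widely, most of all with delta-CC-LCD. Cenpe was called there alone (-0.82 ± 0.21, adjusted p = 0.004527) and had -0.43 ± 0.21 with each of full-length (0.1004) and delta-IDR (0.0944). Cenpf, a large kinetochore protein, and Mki67 gave a similar picture, with delta-CC-LCD changes of -0.72 ± 0.19 (0.005553) and -0.45 ± 0.15 (0.01546). Without the low library 2 of that group the 3 values were -0.62 for Cenpe (0.003691), -0.55 for Cenpf (0.007704) and -0.32 for Mki67 (0.02375). Mki67 stood at 656.6, 691.7, 676.7 and 709.5 CPM in the control group, 609.4, 642.0, 547.2 and 735.5 CPM with full-length, 647.6, 648.7, 620.2 and 498.9 CPM with delta-IDR and 507.4, 351.3, 607.6 and 530.7 CPM with delta-CC-LCD. All delta-CC-LCD and delta-IDR libraries lay below the control libraries, and full-length library 4 lay above them. Birc5, which encodes survivin, fell by 0.23, 0.13 and 0.29, with the delta-IDR call lost without library 1 of that group (0.0546). Cenpa, the centromeric histone, was called with delta-CC-LCD alone (-0.20). Top2a stood at 943.9, 954.2, 948.8 and 950.7 CPM in the control group, 977.1, 920.4, 949.2 and 915.0 CPM with full-length, 973.3, 952.9, 929.3 and 845.3 CPM with delta-IDR and 815.1, 881.9, 912.8 and 882.6 CPM with delta-CC-LCD. The delta-CC-LCD libraries were all below the control libraries, and Top2a was called there (-0.12 ± 0.04, adjusted p = 0.01011), though not without library 1 of the group (0.0573).

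The spindle genes divided. Kif2c, a motor that depolymerises microtubules at kinetochores, had the largest fall of the list with full-length (-0.49 ± 0.06, adjusted p = 1.596e-08) and fell by 0.37 and 0.66 in the other 2 groups. It stood at 94.81, 91.13, 89.81 and 87.9 CPM in the control group, 65.28, 63.56, 63.61 and 66.08 CPM with full-length, 71.08, 77.26, 72.73 and 59.64 CPM with delta-IDR and 54.13, 61.21, 58.76 and 55.71 CPM with delta-CC-LCD. Control and construct libraries did not overlap, and the delta-CC-LCD group was the lowest. Kif11, the motor that separates spindle poles, stood at 180.5, 180.7, 188.3 and 181.3 CPM in the control group, 180.0, 164.7, 160.8 and 168.4 CPM with full-length, 178.5, 170.8, 170.7 and 146.7 CPM with delta-IDR and 157.0, 156.2, 164.0 and 153.6 CPM with delta-CC-LCD. All construct libraries lay below the control libraries, by a narrow margin for full-length library 1. Kif11 fell by 0.12, 0.13 and 0.21 (adjusted p = 0.03572, 0.01633 and 0.0002766). The first 2 of these calls were lost without single libraries, the full-length one without 5 of 8 libraries (up to 0.113 without full-length library 3) and the delta-IDR one without control library 3 (0.0524) or its own library 4 (0.108). By contrast Tpx2 rose by 0.20, 0.16 and 0.17, and Nusap1, which bundles spindle microtubules, by 0.24, 0.11 and 0.25, although with total counts as library sizes Tpx2 was called in none of the 3 and Nusap1 with delta-CC-LCD only. The Nusap1 call with delta-IDR was lost without any of 6 libraries (up to 0.187 without its own library 2). Kif4 and Hmmr were called in none of the 3.

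Among the cytokinesis genes, Kif20a, a motor of the cleavage site, stood at 91.36, 91.75, 94.38 and 95.24 CPM in the control group, 78.05, 71.13, 71.34 and 72.19 CPM with full-length, 76.38, 78.25, 76.45 and 67.69 CPM with delta-IDR and 57.78, 60.91, 64.41 and 57.19 CPM with delta-CC-LCD. Its delta-CC-LCD libraries lay below all others. Kif20a fell by 0.35, 0.32 and 0.63 (adjusted p = 7.718e-07, 2.802e-06 and 4.48e-12), with the overlapping Cdc23 on the other strand at 81.5% of its counts. Anln, the actin-binding scaffold of the contractile ring, stood at 309.4, 321.2, 326.4 and 312.5 CPM in the control group, 378.5, 318.8, 359.4 and 342.3 CPM with full-length, 348.3, 328.1, 339.9 and 299.5 CPM with delta-IDR and 303.9, 299.9, 295.4 and 283.5 CPM with delta-CC-LCD. The full-length libraries lay higher with 1 of them inside the control range, and the delta-CC-LCD libraries lay below it. Anln rose by 0.14 with full-length (adjusted p = 0.01092, and 0.0716 without library 1 of that group), beside 0.05 and -0.10 for the others. Prc1, which bundles the central spindle, rose by 0.22 with full-length alone. Ect2, the exchange factor that activates RhoA for furrowing, fell by 0.32 with full-length and by 0.33 with delta-CC-LCD, and was -0.10 ± 0.05 with delta-IDR (adjusted p = 0.0998). Kif23 was not called.

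**Figure D3:**
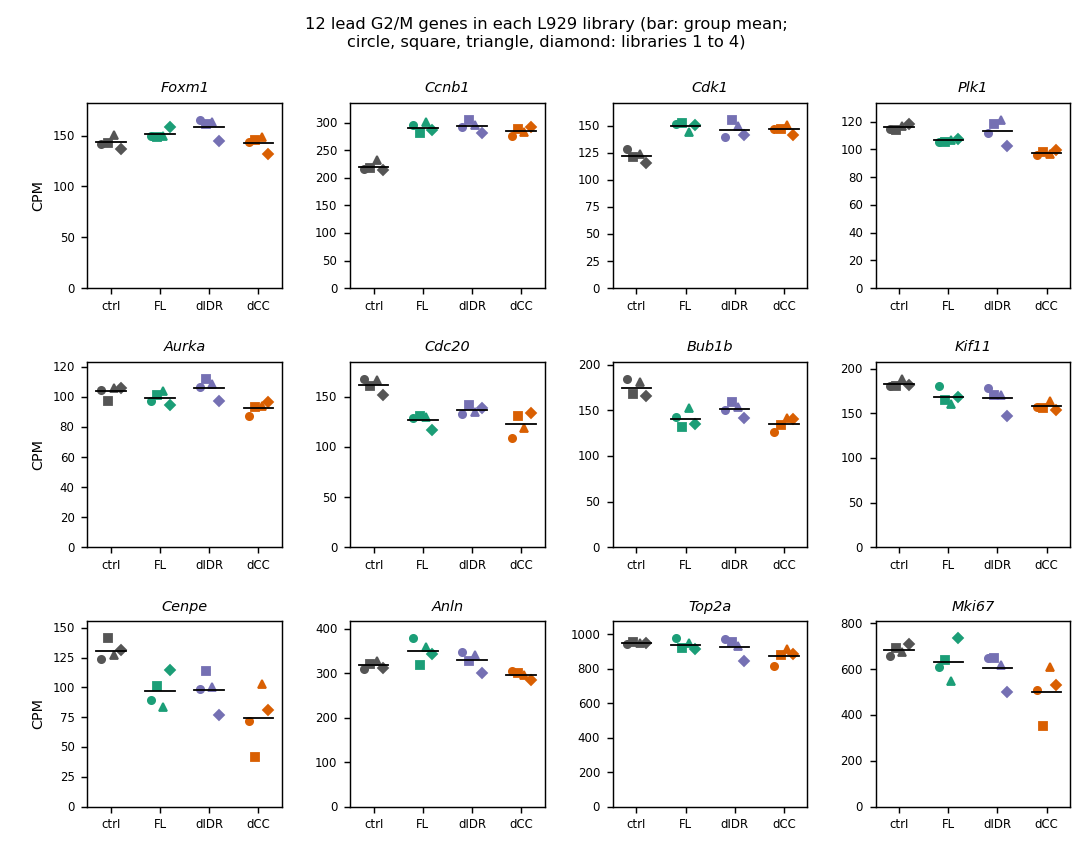
CPM of 12 genes covering every role in each L929 library, by group; circles, squares, triangles and diamonds are libraries 1 to 4 and bars are group means. All construct libraries lie above the control libraries for Ccnb1 and Cdk1 and below them for Bub1b, Cdc20 and Cenpe.

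Calls against the control group were mostly stable. Of the 20, 17 and 25 calls, 17, 12 and 23 remained past the threshold without each library in turn and also with libraries 1 and 3, and 2 and 4, summed. Without the low delta-IDR library 4, the delta-IDR count was also 17. The scaling changed more calls. With total counts as library sizes, a setting chosen after seeing the data, the median of all tested genes moved to -0.18, -0.12 and -0.17, and the counts became 2 higher and 22 lower, 3 and 16, and 4 and 26. Ccnb1 (0.23, 0.31 and 0.23) and Cdk1 (0.13, 0.15 and 0.12) rose in all 3 groups under that scaling too. Under it Tpx2 was called in none of the 3 (adjusted p = 0.4319, 0.2139 and 0.523), Ube2c was not called with full-length (0.1603), and Nusap1 was called with delta-CC-LCD only (0.04998). Ccna2 and Anln with full-length turned to -0.0028 (adjusted p = 0.9658) and -0.03 (0.5805).

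The second question was whether the deletions changed the program relative to the full-length protein, all 3 lines being under DEX per the design text. Few of the genes were called between delta-IDR and full-length. Of the 34 genes, 3 were higher and 1 was lower, at a background of 25.3% of genes called (11.7% higher and 13.6% lower), and the median log2 difference was 0.03 beside -0.0013 over all genes. Ect2 was higher by 0.22 ± 0.06 (adjusted p = 0.004015), Cdc25c by 0.22 ± 0.08 (0.03111) and Nek2 by 0.14 ± 0.05 (0.04746), and Prc1 was lower at -0.16 ± 0.04 (0.005804). Ect2 alone held without each library and in the pair sums. The count was 8 without the low delta-IDR library 4, 2 without full-length library 1, and 12 higher and 0 lower with total counts as library sizes.

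Between delta-CC-LCD and full-length, 6 of the 34 genes (17.65%) were called, near the 19.3% of all genes called. Of the 5 cytokinesis genes, 4 were called lower with delta-CC-LCD, and 3 of these calls held in the pair sums and without each library. Kif20a was lower at -0.28 ± 0.05 (adjusted p = 0.0002471), Anln at -0.24 ± 0.05 (0.0004226), Kif23 at -0.20 ± 0.05 (0.005757) and Prc1 at -0.15 ± 0.04 (0.01396), with Ect2 at -0.01 ± 0.06 and not called. Kif2c was also lower (-0.17 ± 0.06, 0.04423) and Ccnf, the F-box cyclin that targets other cell cycle proteins for degradation, was higher (0.15 ± 0.05, 0.04983). These 6 calls, 1 higher and 5 lower, compare with a background of 19.3% of genes called, 8.42% higher and 10.9% lower. The calls that held were Kif20a, Anln and Kif23. Prc1 was lost in the pair sums (0.1327) and without full-length library 1 (0.0517), where 3 genes were called. Kif2c was lost without any of 7 libraries and Ccnf without any of 5.

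More genes separated the 2 deletions from each other. Of the 34 genes, 14 were higher with delta-IDR than with delta-CC-LCD and 1, Nusap1, was lower (-0.14 ± 0.05, adjusted p = 0.0339), against a background of 22.3% of genes called, 11.6% of them higher and 10.7% lower as shares of all genes tested. The median difference was 0.15, beside 0.003 over all genes. All 4 mitotic kinases were higher, by 0.22 for Plk1 (0.0005892), 0.19 for Aurka, 0.17 for Nek2 and 0.16 for Aurkb. Cdc25c was higher by 0.36 ± 0.08 (0.0009938), Kif20a by 0.31 ± 0.05 (3.444e-05), Kif2c by 0.29 ± 0.06 (0.0005015) and Ect2 by 0.23 ± 0.06 (0.002716). Foxm1, Bub1, Bub1b, Birc5, Anln and Cdc20 made up the rest, at 0.15 to 0.18. The cyclin and Cdk1 group was mostly not called, with 0.05 ± 0.04 for Ccnb1 and -0.0018 ± 0.04 for Cdk1. Plk1, Aurka, Cdc25c, Kif20a, Kif2c and Ect2 held without each library and in the pair sums. The count of calls was 9 without delta-IDR library 2 and 18 without the low delta-IDR library 4.

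Other cell cycle genes give the setting. Of all tested genes, 59.1%, 64.4% and 64.6% were called with full-length, delta-IDR and delta-CC-LCD against the control group. Of 56 further mitotic genes, 5 rose and 32 fell with full-length, 10 and 27 with delta-IDR, and 6 and 35 with delta-CC-LCD. The shares of this list called were 66.1%, 66.1% and 73.2%. Psrc1, a spindle protein, had the smallest p of the list in each comparison and fell, at -1.27, -1.39 and -1.66. Of 26 S-phase genes, 2 rose and 18 fell with full-length, whereas 14 rose and 4 fell with delta-IDR, and 4 rose and 12 fell with delta-CC-LCD. Those called made up 76.9%, 69.2% and 61.5% of the S-phase list. Delta-IDR was above full-length for 24 of the 26 S-phase genes, none lower, led by the replication licensing factor Cdt1 (0.85 ± 0.06) and by Mcm5, Mcm3 and Mcm2. That share, 92.3%, stands beside 25.3% of all genes called and 11.7% called higher. The G2/M list gave 3 higher and 1 lower in the same comparison. Of 22 tested genes of G1 and arrest, 8 rose and 8 fell with full-length, 12 and 8 with delta-IDR, and 8 and 10 with delta-CC-LCD. These shares were 72.7%, 90.9% and 81.8%. Cdkn1a, the p21 inhibitor of cyclin-dependent kinases, rose by 3.00, 2.62 and 2.61, and Ccnd1, cyclin D1, by 0.95, 1.04 and 1.15.

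In neurons, the first comparison was DEX against no DEX, both on control peptide. Few of the G2/M genes were called. Aurkb rose by 0.20 ± 0.07 (adjusted p = 0.04123) and Mki67 by 0.16 ± 0.05 (0.04412), 2 of 34 against a background of 10.8% of 17837 genes called, 5.44% higher and 5.35% lower. Mki67 stood in libraries 1 to 4 at 304.1, 329.2, 328.9 and 346.9 CPM with control peptide and no DEX and 378.2, 317.0, 406.1 and 366.1 CPM with control peptide and DEX. The groups overlap. The list's median was 0.02, beside -0.0071 over all genes. Neither call was stable: Aurkb was lost without any of 6 libraries and Mki67 without any of 6 (adjusted p up to 0.165 and 0.19), no library could be left out with both calls kept, and the pair sums called 0. In the same comparison Cdkn1a fell by 0.43.

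The next question was whether the interfering peptide changed these genes under DEX. All 5 doses share the control peptide libraries with DEX, so values are given side by side. The genes called were nearly all higher, and changes were small. At 1 µM 4 genes rose and 0 fell, at a background of 2.29% of genes called (1.4% higher and 0.891% lower). At 3 µM 1 rose and 0 fell (background 5.25%, with 2.88% higher and 2.37% lower), and at 10 µM 0 rose and 0 fell (5.38%, with 3.17% higher and 2.21% lower). At 30 µM 10 rose and 1 fell (15.9%, with 8.62% higher and 7.26% lower), and at 100 µM 7 rose and 1 fell (23.4%, with 11.9% higher and 11.5% lower). At 10 µM the edgeR and DESeq2 tests both called 0 of the 34, and 10 had an unadjusted p under 0.05. The median log2 change of the list was 0.13, -0.02, 0.07, 0.13 and 0.09 across the doses, beside -0.0036, 0.0053, 0.0036, -0.0034 and -0.011 over all genes. Positive changes were seen in 33 of 34 genes at 1 µM, 29 at 30 µM and 28 at 100 µM, whereas the list's median at 3 µM was negative (-0.02). The summed level was 2937 ± 101 CPM on control peptide with DEX, and 3198 ± 53.1, 2908 ± 159, 3060 ± 89.9, 3185 ± 79.4 and 3134 ± 154 CPM with rising dose, so the order of the sums did not follow the dose.

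**Figure D4:**
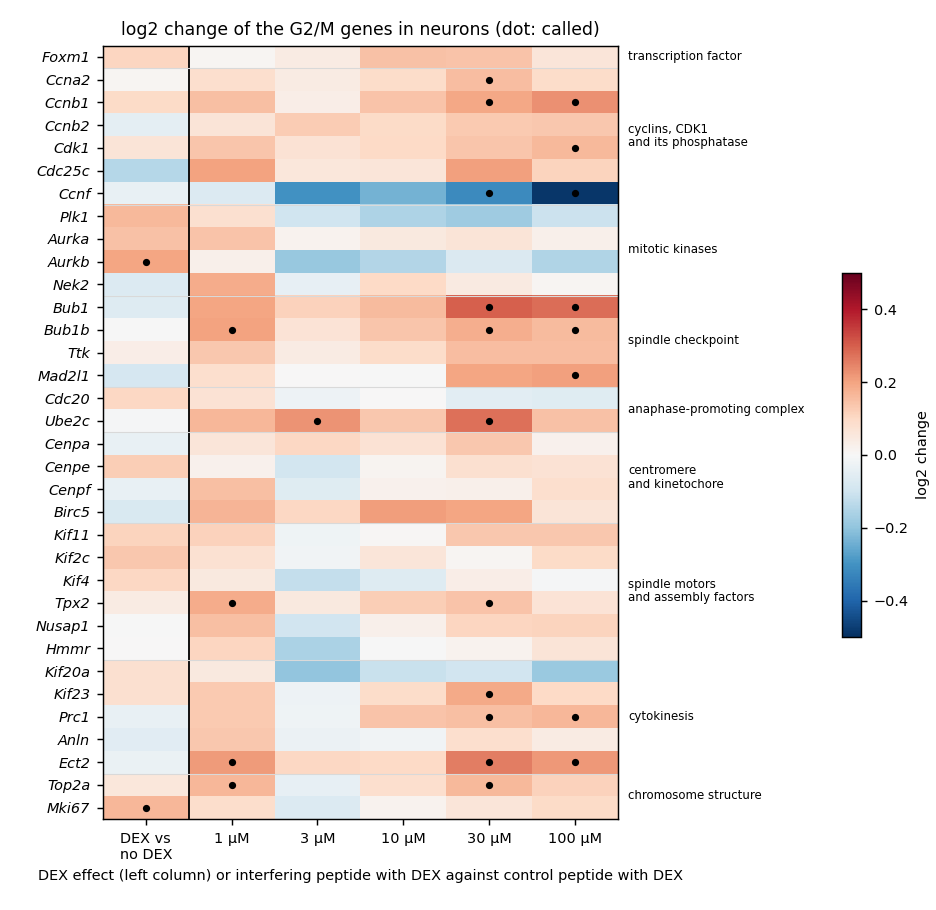
Heat map of the log2 change of each of the 34 genes in neurons, for DEX against no DEX on control peptide and for each interfering peptide dose against control peptide with DEX; dots mark calls at an adjusted p below 0.05. Most cells at 1, 30 and 100 µM are above 0, and Ccnf is the gene called lower at 30 and 100 µM.

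Ccnb1 stood at 96.73, 91.46, 89.61 and 91.19 CPM with control peptide and DEX, 108.3, 105.7, 106.1 and 102.3 CPM at 30 µM and 114.3, 100.1, 117.1 and 100.7 CPM at 100 µM. All libraries at both doses lay above those with control peptide. Ccnb1 rose by 0.19 ± 0.05 at 30 µM (adjusted p = 0.004299) and by 0.23 ± 0.05 at 100 µM (0.000484), with 0.15, 0.03 and 0.14 at 1, 3 and 10 µM not called. Cdk1 rose at 100 µM alone (0.16 ± 0.06, 0.03578), and this was lost without control libraries 1 or 4 or 100 µM libraries 1 or 3 (0.12 to 0.146). Ccna2 rose at 30 µM alone (0.16 ± 0.05, 0.02477), lost without any of 6 libraries (0.0503 to 0.0745).

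Bub1, the checkpoint kinase at the kinetochore, stood at 59.13, 60.65, 64.85 and 61.82 CPM with control peptide and DEX, 79.2, 72.51, 79.29 and 72.26 CPM at 30 µM and 72.55, 70.66, 81.26 and 74.18 CPM at 100 µM. Again the groups did not overlap. Bub1 rose by 0.30 ± 0.06 at 30 µM (adjusted p = 0.0007548) and by 0.28 ± 0.06 at 100 µM (0.001009). Bub1b rose at 1 µM (0.20), 30 µM (0.18) and 100 µM (0.16), and each of these calls was lost without 4 or 5 single libraries, control libraries 2 and 4 among them each time (0.0544 to 0.187). Mad2l1 rose at 100 µM (0.20, 0.03525), lost without any of 6 libraries. Ube2c stood at 59.96, 60.86, 62.25 and 62.5 CPM with control peptide and DEX, 70.25, 75.17, 67.48 and 74.23 CPM at 3 µM and 81.69, 68.18, 77.53 and 70.01 CPM at 30 µM. The 3 and 30 µM libraries lay above all control peptide libraries. Ube2c rose by 0.23 ± 0.06 at 3 µM (0.01371, and 0.0576 without library 2 of that dose) and by 0.28 ± 0.06 at 30 µM (0.0006851), with 0.15 at 100 µM not called (0.06303).

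Ect2 stood at 82.67, 78.29, 88.45 and 77.22 CPM with control peptide and DEX, 88.36, 104.1, 90.35 and 95.52 CPM at 1 µM, 99.92, 94.25, 99.73 and 95.6 CPM at 30 µM and 96.85, 91.79, 99.28 and 91.28 CPM at 100 µM. At 1 µM 1 library lay inside the control range, and at 30 and 100 µM none did. Ect2 rose by 0.21 at 1 µM (adjusted p = 0.03363, lost without any of 5 libraries, up to 0.224), 0.25 ± 0.06 at 30 µM (0.001715) and 0.22 ± 0.06 at 100 µM (0.004967). Kif23 rose at 30 µM (0.19, lost without control library 4 at 0.0943 or 30 µM library 1 at 0.0511), and Prc1 at 30 µM (0.15, lost without any of 6 libraries) and 100 µM (0.17, kept without each). Rccd1 overlaps Prc1 on the other strand with counts equal to 18.8% of those of Prc1 in neurons. Top2a and Tpx2 rose at 1 and 30 µM by 0.14 to 0.18, and these calls were lost without 3 to 7 single libraries each.

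Ccnf stood at 30.05, 29.36, 28.59 and 28.08 CPM with control peptide and DEX, 20.35, 26.07, 21.84 and 24.75 CPM at 30 µM and 25.95, 16.17, 24.04 and 16.66 CPM at 100 µM. All libraries at both doses lay below the control libraries, and at 100 µM libraries 2 and 4 were far below libraries 1 and 3. Ccnf fell by 0.32 ± 0.11 at 30 µM (adjusted p = 0.04862, lost without any of 7 libraries, up to 0.163) and by 0.49 ± 0.11 at 100 µM (0.001838, and 0.08561 in the pair sums). With log10 dose over the 20 interfering peptide libraries Ccnf fell by 0.17 ± 0.05 per 10-fold dose (0.02496), the 1 gene of the 34 whose slope was called, against a background of 19.4% of 17349 genes (9.46% higher and 9.91% lower). That call was lost without 1 µM libraries 1 or 3 (0.0607 and 0.0525) or 100 µM libraries 2 or 4 (0.0757 each), and without 1 µM libraries 2 or 4 the count was 2. The list's median slope was 0.015, beside -0.0019 over all genes.

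**Figure D5:**
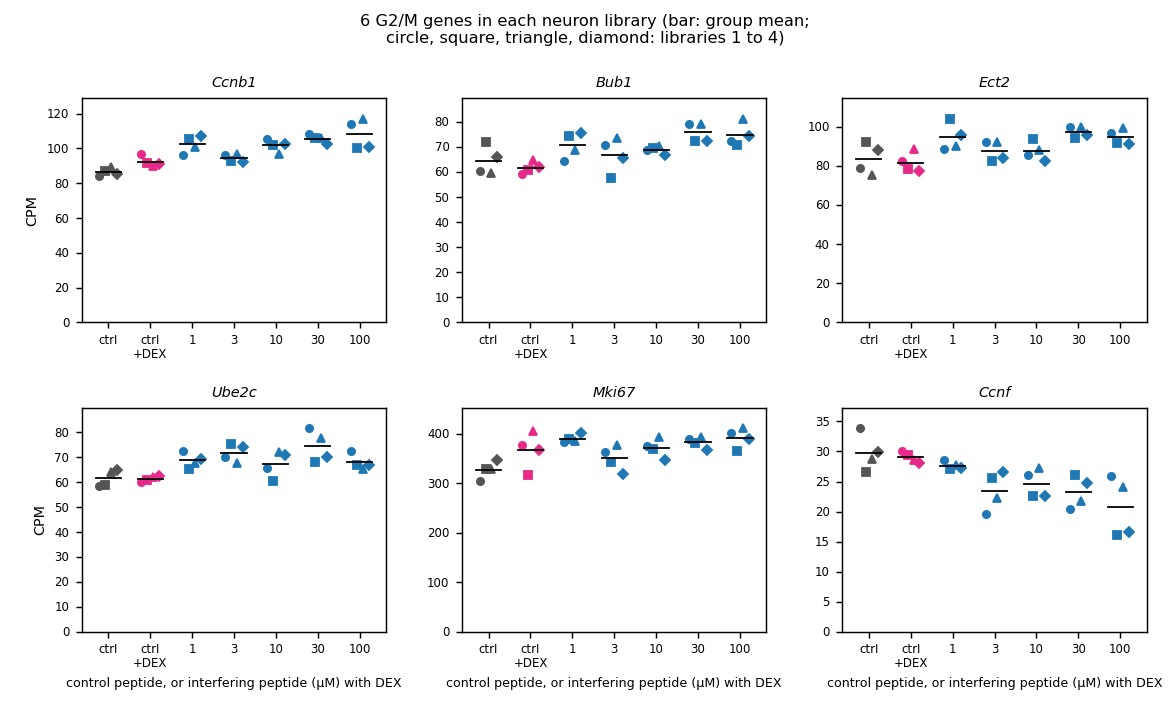
CPM of Ccnb1, Bub1, Ect2, Ube2c, Mki67 and Ccnf in each library of the 7 neuron groups; circles, squares, triangles and diamonds are libraries 1 to 4 and bars are group means. Ccnb1 and Bub1 lie above the control peptide libraries with DEX at 30 and 100 µM, and Ccnf at 100 µM divides into a higher and a lower pair.

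Summing libraries 1 and 3, and 2 and 4, lowered these counts. The pair sums called 0 genes at 1 and 3 µM, 2 at 30 µM (Bub1 at an adjusted p of 0.0477 and Ube2c at 0.0326) and 2 at 100 µM (Ccnb1 at 0.0323 and Bub1 at 0.0382). Single libraries also moved the counts. At 1 µM the count was 0 without control libraries 2 or 4 or 1 µM library 4, 1 without 1 µM libraries 2 or 3, and 2 without control library 1. At 10 µM it was 1 without control library 1 or 10 µM library 2. At 30 µM it was 4 without 30 µM library 1 and 5 without control libraries 2 or 4 or 30 µM library 3, and at 100 µM it was 5 without control library 4. Between 30 and 10 µM, a contrast that shares no control group, 0 genes were called by edgeR or DESeq2 (background 0.762%, with 0.308% higher and 0.454% lower), 5 had an unadjusted p under 0.05, and the median was 0.05 with 27 of 34 positive.

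Against control peptide without DEX, the 100 µM group with DEX was higher for 14 genes and lower for Ccnf (-0.52 ± 0.11, adjusted p = 0.0004577), at a background of 35.1% of genes called (17.4% higher and 17.7% lower). Ccnb1, at 83.9, 87.07, 89.38 and 85.15 CPM in the control, was higher by 0.32 ± 0.05 (1.036e-06). Mki67 was higher by 0.26 ± 0.05 (0.0002732), Kif11 by 0.25, Kif2c by 0.23 and Cdk1 by 0.22 ± 0.06 (0.001957), and Bub1, Cenpe, Ttk, Ect2, Kif23, Top2a, Foxm1, Bub1b and Prc1 by 0.13 to 0.21. Ccnb1, Mki67, Cdk1 and Ccnf held without each library and in the pair sums, where 5 genes were called. Total-count scaling moved the median of all genes to -0.10 and called 5 of the 34.

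Other lists give what moved beside these genes in the neuron cultures. Over all genes, 2.29%, 5.25%, 5.38%, 15.9% and 23.4% were called across the doses, and 19.4% over the dose slope. Of 8 neural progenitor markers 1 rose at 1 µM (Nes), 0 at 3 µM, 3 at 10 µM, 3 at 30 µM (Fabp7 by 0.27 ± 0.04, Nes by 0.20 and Prom1 by 0.26) and 2 at 100 µM, with none called lower at any single dose against control peptide with DEX. Over the dose slope 1 marker was higher (Fabp7 at 0.08 ± 0.03, adjusted p = 0.02962) and 1 lower (Hes5, a Notch target, at -0.16 ± 0.05, 0.01848). Hes5 stood at -0.29 ± 0.11 at 100 µM and was not called (0.06199), and Eomes, a marker of intermediate progenitors, was negative at every dose and called at none. Their summed level was 1681 ± 37.4 CPM on control peptide with DEX and 1736 ± 29.2, 1722 ± 16.1, 1804 ± 32.7, 1865 ± 17.2 and 1800 ± 62.4 CPM with rising dose, and none of them was at 0 in any library. Neuron markers rose too, 2 of 8 at 30 µM and 4 of 8 at 100 µM (Dcx by 0.30 ± 0.06). Summed astrocyte markers stayed between 274 and 351 CPM, oligodendrocyte lineage markers between 72.0 and 101 CPM, microglial markers between 21.4 and 31.4 CPM and vascular markers between 124 and 159 CPM over the 28 libraries. The part of any of these cell types in the G2/M values was not tested. Of the 56 further mitotic genes, 4 rose and 0 fell at 1 µM, 0 and 3 at 3 µM, 0 and 0 at 10 µM, 10 and 0 at 30 µM and 9 and 4 at 100 µM, and over the dose slope 5 were higher and 5 lower. The S-phase genes gave 1 rise and 0 falls at 1 µM, 1 and 2 at 3 µM, 1 and 0 at 10 µM, 4 and 1 at 30 µM and 6 and 5 at 100 µM, and 2 higher and 3 lower over the slope. Pcna, the replication clamp, rose by 0.27 at 30 µM and 0.20 at 100 µM. Among G1 genes, Ccnd2, cyclin D2, rose by 0.31 ± 0.05 at 100 µM.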

How the data were processed

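Both tables hold raw whole-number read counts per gene as deposited by the authors, 1 table for L929 and 1 for neurons. Alignment used HISAT2 2.2.1 and mm10, per the submitters' processing notes. Nothing in the sources used here names the counter, the annotation or the strand setting. Groups and replicate numbers come from the sample titles. The 34 genes, the other lists and the rule for named genes were chosen with earlier results of these data known. By that rule all 34 genes may be named, 12 of them with values in every library in L929, and other lists give at most the 4 genes with the smallest p.

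Each table was fitted alone with edgeR 4.0.16 (R 4.3.3): filterByExpr (14118 genes left in L929, 17837 in neurons, 17349 for the slope), TMM scaling, robust quasi-likelihood fits over all groups of the table with no replicate block, and Benjamini-Hochberg adjustment over all genes tested, with a threshold of 0.05 and no fold minimum. CPM are counts per TMM-scaled library size, computed from the deposited counts. The standard error is the log2 change divided by the square root of F. The steps were tested on simulated counts. The alternatives run were RLE size factors, DESeq2 1.42.0, no filter, only the compared groups, a replicate block, dose as a rank, libraries summed in pairs and each library left out, and, added after seeing the data, total counts as library sizes. Same-numbered libraries of different groups did not deviate together (median correlation 0.047 in L929 and -0.032 in neurons), so numbers do not pair libraries. Of the 34 genes 18 overlap another gene, which has counts of at least 10% of the member's for 5 genes in L929 and 6 in neurons. In L929 these are Ccna2 (10.8%), Cdc20, Kif20a, Kif4 and Nusap1 (10.6%). In neurons they are Ccna2 (21.8%), Cdc20, Cdc25c, Kif20a, Kif4 and Prc1. Without a known strand setting these counts cannot be separated.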

Additional observations from a re-analysis of the deposited data

Results flagged for a closer look

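In 7 of 143 group checks of 4 libraries, 1 library lay far from the other 3 (its gap to the nearest, as a share of the group's range, past Dixon's critical value). Chance gives about 1 in 20 such checks. Of these, 5 were in L929. Foxm1 stood at 158.9 CPM in full-length library 4, against 148.7 to 149.9 CPM in the other 3. Cdc20 stood at 117.3 CPM in the same library, against 128.3 to 130.3 CPM. In the control group Ccnb1 stood at 233.0 CPM in library 3 (others 214.5 to 217.2), Kif11 at 188.3 CPM in library 3 (others 180.5 to 181.3) and Aurka at 97.27 CPM in library 2 (others 104.9 to 106.2). In neurons Cdc20 stood at 55.41 CPM in library 4 at 30 µM, against 60.75 to 61.58 CPM, and Cenpe at 99.96 CPM in library 3 on control peptide with DEX, against 81.31 to 83.88 CPM.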

How the results depend on the processing

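Over single genes and alternatives, 7633 values kept their side of the threshold, and their direction where called. Values uncalled in both fits were counted among these whatever their sign. Of the rest, 303 fell short of the threshold and 119 newly passed it. Among values called in either fit 3 turned sign, all with total counts as library sizes: Anln and Ccna2 with full-length (-0.03009 and -0.00279) and Mad2l1 with delta-CC-LCD (-0.107). DESeq2, RLE size factors and dose as a rank moved no count of calls by over 1.5 times. Nor did a replicate block, which called 21, 17 and 26 of the 34 genes against the L929 control group, 4, 5 and 15 between constructs, 2 for DEX and 4, 1, 0, 10 and 8 across the doses. With libraries summed in pairs the 34 genes gave 1 call for delta-IDR and 3 for delta-CC-LCD against full-length, 7 between the deletions, 0 for DEX, 0 at 1 and 3 µM, 2 at 30 and 100 µM, 5 for 100 µM against no DEX and 0 for the slope. Over all genes the pair sums called 1522 for delta-CC-LCD against full-length, 2088 between the deletions, 307 for DEX, 81, 95, 107, 714 and 1812 across the doses, 4070 for 100 µM against no DEX, 20 for 30 against 10 µM and 1514 for the slope, where all libraries gave 2727, 3147, 1925, 409, 937, 960, 2833, 4167, 6259, 136 and 3361. These fits have fewer samples. Total counts as library sizes gave 12 of the 34 for delta-IDR against full-length, 0 for DEX, 2 at 1 and 3 µM, and 5 at 30 µM and for 100 µM against no DEX, and the cause was not tested. Fits of only the compared groups called 2 of the 34 for delta-IDR against full-length and 1 for DEX, and 378 genes at 3 µM and 230 for 30 against 10 µM. Without the low-count filter 2 of the 34 were called at 3 µM, and 245 genes for 30 against 10 µM. Leaving out 1 library gave 2 to 8 of the 34 for delta-IDR and 3 to 6 for delta-CC-LCD against full-length, 9 to 18 between the deletions, 0 to 1 for DEX, 0 to 5 at 1 µM, 0 to 1 at 3 and 10 µM, 4 to 12 at 30 µM, 5 to 10 at 100 µM and 0 to 2 for the slope. Over all genes it gave 1139 to 1796 calls for DEX, 227 to 429 at 1 µM, 435 to 1119 at 3 µM, 506 to 1010 at 10 µM and 74 to 193 for 30 against 10 µM. In simulated counts, 62% of genes changed by 1.25-fold were called between L929 constructs (delta-IDR against full-length) and 42% at 100 µM in neurons. The changed genes were drawn from all but the lowest counts, so these rates are not those of genes at the level of the 34. Changes below 1.25-fold were not simulated. The simulation gave every gene the same spread and led to 183 and 175 calls, where the data gave 3568 and 4167. Its rates therefore do not measure how many of the 34 genes were missed.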
